A study of Mus musculus with 4 samples.

Results

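Cxadr, Btg3, D16Ertd472e and Chodl are 4 protein-coding genes that follow each other on mouse chromosome 16. They were examined here in the telencephalon, the embryonic forebrain, of control and Ctcf-null embryos at embryonic day 14. They were picked by symbol out of the 48795 genes of the deposited table because their normalized read counts were higher in both Ctcf-null libraries than in the control of the same number. The contrast between genotypes therefore chose them, and their own values are a description without a test. All 4 were among the 22158 genes with enough reads to be tested. The controls are labelled Ctcf floxed, which means that the Ctcf gene carries loxP sites, and they have no Cre. The Ctcf-null embryos are labelled Ctcf floxed; NestinCre, and both groups are of the strain C57BL/6. Nestin sequences drive the Cre recombinase in neural progenitor cells, so that blood, vessel and microglial cells in the dissected tissue are not expected to lose Ctcf. No group carried Cre without the floxed gene, and the sources used here do not give how many embryos a library holds. There were 2 libraries per genotype, numbered as 2 pairs.

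CTCF, a DNA-binding zinc finger protein, holds chromatin loops in place together with the ring-shaped cohesin complex; it marks their ends and the boundaries of chromatin domains, within which enhancers and promoters meet more often. Neighbouring genes are therefore often examined together when CTCF is removed. Cxadr encodes the coxsackievirus and adenovirus receptor (CAR), an immunoglobulin-like adhesion protein of cell junctions that is abundant in the developing brain. Btg3 encodes a member of the BTG and TOB family, which restrains cell proliferation and recruits the CCR4-NOT complex that shortens the poly(A) tails of mRNAs. D16Ertd472e, also called Eurl, has been studied in cortical development, and Chodl encodes chondrolectin, a membrane-spanning C-type lectin known as a marker of fast motor neurons and of a rare class of somatostatin interneurons.

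The libraries held 25519331 to 43812558 reads, recovered as whole numbers from the normalized values. The 10 most abundant genes took 22% to 26% of the reads in the first pair and 8.4% to 8.8% in the second, and the pairs differed more than the genotypes, with a median absolute log2 difference of 0.84 against 0.20. Genotypes were therefore compared within pairs, by limma on log2(normalized count + 1) with the pair as a block. That fit called 813 genes higher (3.67% of those tested) and 2228 lower (10.1%) at a Benjamini-Hochberg adjusted p of 0.05, with a median log2 difference of -0.07 over all tested genes. In the same fit 5998 of the 22158 tested genes had an unadjusted p under 0.05, counting both directions. Counts of genes at that level in the lists below are to be read beside this share. Higher calls were 26.7% of all calls there, 40.2% with TMM factors and 56.0% with upper-quartile factors in edgeR. Without the block the limma fit called 0 genes, while 170 had an unadjusted p under 0.05, so each adjusted p below depends on comparing libraries within pairs. The labels do not tell whether each library is a separate embryo, so the spread between the 2 pair differences may be technical. The p-values measure that spread, with most of its estimate borrowed from all genes (18.1 prior against 1 residual degree of freedom). Controls 1 and 2 had 436.72 and 1133.21 normalized counts of Ctcf itself, and the Ctcf-null libraries with those numbers had 38.89 and 61.96. The markers of the labelled tissue Emx1, Emx2, Lhx2, Dlx2 and Tbr1 had reads in every library.

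The run spans 650245 bases of the GRCm38 assembly (mm10), from 78301489 to 78951733, in the GENCODE M21 annotation. Cxadr lies first, on the plus strand, at 78301489 to 78359774. Btg3 follows on the minus strand at 78332637 to 78377192, so that the 2 genes point toward each other and their annotated ends overlap. D16Ertd472e, also on the minus strand, lies at 78540338 to 78576708, 163 kb beyond Btg3. Chodl is on the plus strand at 78930948 to 78951733 and is separated from D16Ertd472e by 354 kb.

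**Figure D1:**
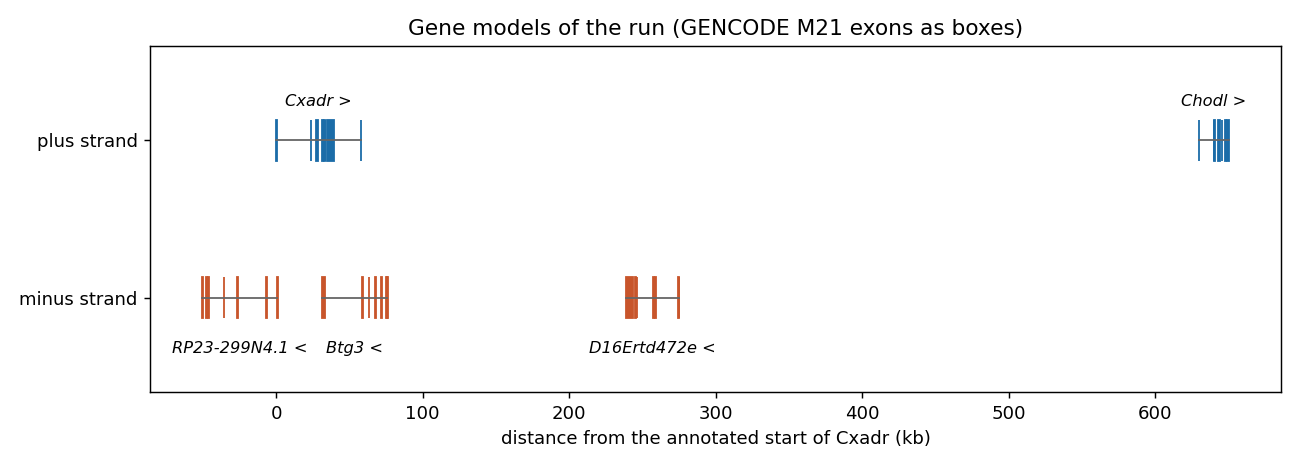
Map of the run, with the distance from the annotated start of Cxadr in kb on the x axis and the strand on the y axis. Boxes are exons of GENCODE M21 and lines are gene spans; Cxadr and Btg3 overlap at their ends, and Chodl stands 354 kb from its neighbour.

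The table has 7 rows that overlap the run, of which the 4 genes were tested and 3 were not. The untested rows were the snoRNA Gm25038, with 0 reads in 3 libraries and 3 reads in Ctcf-null 2, the snRNA Gm24861, with 0 to 4 reads, and the non-coding RP23-299N4.1. This last transcript runs away from the start of Cxadr on the other strand and overlaps that start. It had 4 reads in each control and 10 and 8 in the Ctcf-null libraries. Reads of the 2 strands cannot be told apart in this table, because the labels name no stranded kit.

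In RefSeq windows of the same build, 3 of the 4 genes had a sequence before a start site, and it is shown because the genes were higher together and CTCF can bind promoters. Each line gives the 250 bases before the start site in the direction of transcription. Capitals mark matches, on either strand, to 3 promoter motifs: the GC box GGGCGG, the CCAAT box CCAAT and the TATA box TATANA. The windows are chr16:78376811-78377060 (minus strand), chr16:78576689-78576938 (minus strand) and chr16:78930698-78930947 (plus strand).
Btg3: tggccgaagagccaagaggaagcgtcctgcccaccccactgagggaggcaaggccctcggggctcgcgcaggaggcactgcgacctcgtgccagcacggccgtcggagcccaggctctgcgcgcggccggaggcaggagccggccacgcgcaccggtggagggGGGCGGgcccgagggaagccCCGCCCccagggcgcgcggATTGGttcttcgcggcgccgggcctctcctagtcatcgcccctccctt
D16Ertd472e: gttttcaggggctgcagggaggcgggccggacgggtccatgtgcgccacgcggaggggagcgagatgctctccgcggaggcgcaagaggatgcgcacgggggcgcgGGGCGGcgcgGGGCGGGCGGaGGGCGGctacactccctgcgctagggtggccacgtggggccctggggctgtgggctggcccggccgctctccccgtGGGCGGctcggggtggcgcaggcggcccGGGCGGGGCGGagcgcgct
Chodl: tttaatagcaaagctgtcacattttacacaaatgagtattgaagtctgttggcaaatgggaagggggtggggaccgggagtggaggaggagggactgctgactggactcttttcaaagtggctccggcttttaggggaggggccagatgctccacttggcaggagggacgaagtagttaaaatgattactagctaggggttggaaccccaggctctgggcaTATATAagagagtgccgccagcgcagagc
A CTCF core motif, read on either strand as CCA, 2 free bases, AG, 2 free bases and GGC, had 0 matches in each of these windows, and 2.07% of 32851 RefSeq windows of this length hold one. The windows differ in composition. The D16Ertd472e window had 34 CpG dinucleotides, 79.6% G and C and 7 GC boxes, some of them overlapping, and the Btg3 window had 29 CpG, 75.2% G and C, 2 GC boxes and 1 CCAAT box. The Chodl window had 5 CpG and 52.0% G and C, near the medians of all windows (6 CpG and 52.4%), and held no GC box. It had a TATA match, which reads the same on both strands, at bases 29 to 24 before the start. Of all windows, 32.7% hold a GC box, 33.8% a CCAAT box and 22.6% a TATA match. The last 20 bases of the D16Ertd472e window lie in the first exon of its M21 model, which starts farther upstream. A second Btg3 start site at 78377181 had a window with 7 CpG, 1 CCAAT box and 0 CTCF core matches.

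Chodl had the largest difference of the 4 genes. Controls 1 and 2 had 99.62 and 160.10 normalized counts, from 112 and 128 reads. Ctcf-null libraries 1 and 2 had 315.37 and 534.55, from 446 and 440 reads. Both Ctcf-null libraries lay above both controls, so the groups did not overlap. Within pairs Chodl was 3.17-fold and 3.34-fold higher, and the fitted log2 difference was 1.69 (SE 0.13, 2 libraries per genotype). Of all tested genes, 99.7% had a smaller signed difference. The same share was 90.7% for Cxadr, 93.8% for Btg3 and 90.0% for D16Ertd472e.

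Cxadr was the most abundant of the 4 and had a smaller difference. The first pair had 5405.14 normalized counts in its control and 7109.96 in its Ctcf-null library, and the second pair had 2620.40 and 3881.56. Control 1 was 2.06-fold above control 2, more than the ratio between genotypes in either pair, and the groups overlapped, since Ctcf-null 2 lay below control 1. Within pairs Cxadr was 1.32-fold and 1.48-fold higher in the Ctcf-null library, with a fitted log2 difference of 0.48 (SE 0.07). Its reads numbered 2095 to 10055 per library.

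For Btg3 the first pair had 134.31 normalized counts in its control and 200.11 in its Ctcf-null library, and the second pair had 210.13 and 334.09. Control 2 lay slightly above Ctcf-null 1, so the groups overlapped, while each Ctcf-null library exceeded the control of its own pair. The within-pair ratios were 1.49 and 1.59, and the fitted log2 difference was 0.62 (SE 0.14), from 151 to 283 reads per library.

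D16Ertd472e had the least regular difference. The first pair had 69.38 normalized counts in its control and 106.07 in its Ctcf-null library, and the second pair had 195.12 and 242.98, from 78 to 200 reads. Control 2 was 2.81-fold above control 1, more than its ratio between genotypes in either pair. Within pairs the Ctcf-null library was 1.53-fold higher in the first pair and 1.25-fold higher in the second, and the fitted log2 difference was 0.46 (SE 0.16).

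**Figure D2:**
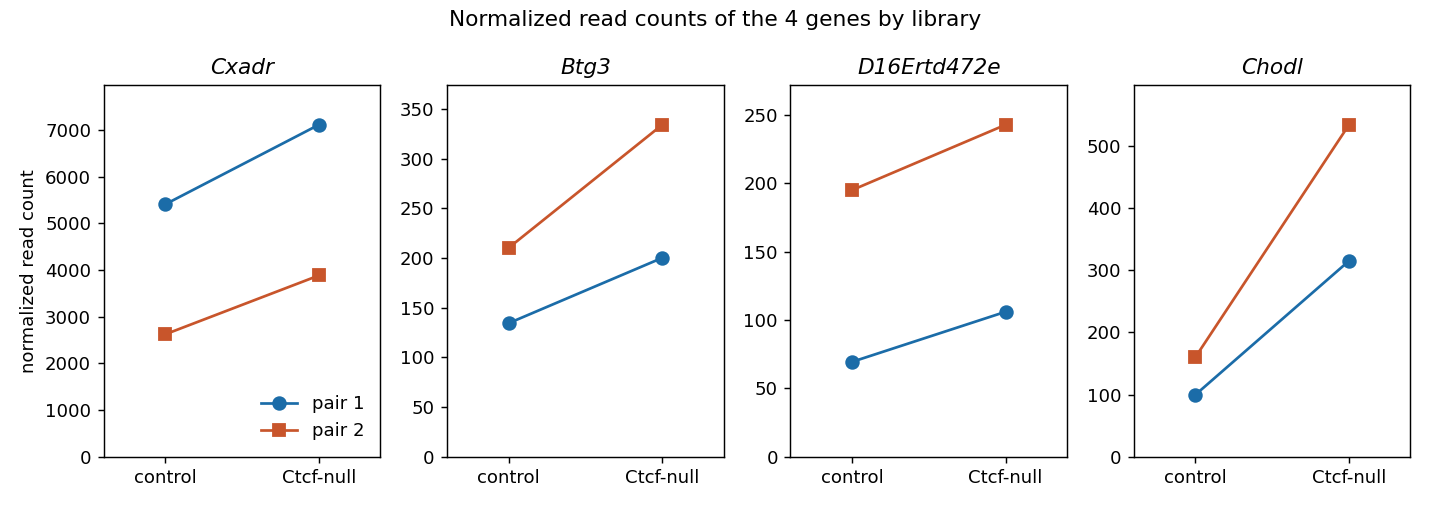
Normalized read counts (y axes, linear and starting at 0) of the 4 genes in each control and Ctcf-null library, with lines joining the libraries of a pair. In all 4 panels both lines go up toward the Ctcf-null library; pair 1 lies above pair 2 for Cxadr and below it for the other 3 genes.

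At the threshold of the fit across all genes, 3 of the 4 genes passed and D16Ertd472e did not, against 3.67% of tested genes called higher. The contrast chose the genes, and nothing is read from that count. It was 4 with TMM or upper-quartile factors in edgeR, 2 (Cxadr and Chodl) in DESeq2 with the block and 0 without the block. The value that lies just inside the choice is that of D16Ertd472e. The tested neighbours just outside it were the non-coding Mir99ahg before Cxadr, with 3654.72 and 3285.22 in the first pair and 2632.90 and 2449.21 in the second, control before Ctcf-null, and the pseudogene Rps19-ps12 after Chodl, with 20.46 and 17.68 in the first pair and 3.75 and 1.21 in the second.

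In RPKM, recovered reads scaled by exon length and by library depth, Cxadr was at 19.9 and 31.0 in the first pair and at 10.3 and 16.9 in the second, control before Ctcf-null. Depth here is all reads of a library, not the authors' normalization, so ratios between genotypes are larger than those of the normalized counts. The other 3 genes were at 0.288 to 1.52 RPKM in controls. In the Ctcf-null libraries the per-length level of Chodl was 1.85 and 3.14 RPKM, above that of D16Ertd472e in the same library. In controls Chodl was at 0.494 and 0.844 and D16Ertd472e at 0.288 and 0.863, so that their order differed between the pairs. The per-length level of Btg3 depends on its model, at 0.911 and 1.52 in controls with every M21 exon and at 2.54 and 4.23 without the transcript that reaches into Cxadr.

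That transcript bears on how the first 2 genes can be separated. In M21 the exons of Cxadr and Btg3 share 695 bases, 17.3% of the Btg3 exon bases and 9.39% of those of Cxadr, all through this 1 transcript of Btg3. Without it the genes are separated by 85 bases, and 0 exon bases are shared. The sources used here do not give the annotation release behind the deposited counts, and the gene versions in the table are older than those of M21. Cxadr is far more abundant, so its reads over the shared bases could enter the Btg3 value if the counting allowed it. Whether this happened was not tested. Between the controls, Cxadr was 2.06-fold higher in control 1 than in control 2 while Btg3 was 1.56-fold higher in control 2 than in control 1.

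The nearest tested genes on either side did not pass in limma. The run was chosen as adjacent genes that were all higher, so the genes that bound it, Mir99ahg and Rps19-ps12, are not independent of that choice. How far the rise extends is not read from these 2 genes. Before Cxadr, the 8 nearest were Mir99ahg, the host transcript of a microRNA cluster, and 7 transcripts annotated inside its span, all within 821 kb. In the limma fit 0 of these 8 passed, 0 had an unadjusted p under 0.05, and 0 were called by edgeR with TMM factors or by DESeq2. Their log2 differences ranged from -0.13 for Mir99ahg to 0.93 for Gm37311, which had 2 to 36 reads. After Chodl, the 8 nearest reached 5998 kb, since the stretch beyond it holds few expressed genes. Of these 8, 5 had an unadjusted p under 0.05 (2 higher and 3 lower), a level that 5998 of all 22158 tested genes reached. Here too 0 of 8 passed in limma, and DESeq2 called 0. With TMM factors edgeR called 1, Jam2, a junctional adhesion molecule of the same family as Cxadr, at a log2 difference of 0.30 (edgeR adjusted p = 0.049). In limma Jam2 had 0.25 (SE 0.10, adjusted p = 0.10), going from 392.24 to 458.21 normalized counts in the first pair and from 727.96 to 875.93 in the second. Ncam2, a neural cell adhesion molecule gene 2249 kb beyond Chodl and the nearest protein-coding one tested, had 0.48 (SE 0.19, limma adjusted p = 0.10). Its pairs differed, with 96.06 and 108.89 in the first and 76.30 and 132.42 in the second. App, the amyloid precursor protein gene, had -0.19 (SE 0.07, limma adjusted p = 0.088).

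Looking past the non-coding transcripts, a choice made after the values were seen, brought in genes farther before Cxadr. Of the 8 nearest tested protein-coding genes on that side, 3 rose and 1 fell, against 3.67% and 10.1% of all tested genes. DESeq2 with the block called only Usp25 of these 8. Of the 8 after Chodl, 0 passed in limma, and 2 had an unadjusted p under 0.05 in the upward and 3 in the downward direction. Usp25, which encodes a ubiquitin-removing protease, lies at 77013706 to 77116780, 1185 kb before Cxadr and on the far side of Mir99ahg. It went from 294.41 to 730.44 normalized counts in the first pair and from 147.59 to 472.59 in the second. The groups did not overlap, and Usp25 rose by a log2 difference of 1.49 (SE 0.12, limma adjusted p = 3.4e-08), a size near that of Chodl. Rbm11, an RNA-binding protein gene 2699 kb before Cxadr, went from 14.23 and 35.02 to 41.01 and 66.82 (1.19, SE 0.28, limma adjusted p = 0.0079), although DESeq2 with the block did not call it (adjusted p = 0.23). The axon guidance receptor genes Robo1 and Robo2, 5255 kb and 3890 kb before Cxadr, differed in opposite directions, at 0.36 (SE 0.10) and -0.37 (SE 0.08), with limma adjusted p of 0.018 and 0.0027 and DESeq2 adjusted p of 0.18 and 0.092. Between Usp25 and Rbm11 lie Nrip1, Samsn1 and Hspa13, at 0.27, -0.36 and 0.17, and none of these 3 passed in limma. With upper-quartile factors edgeR called Nrip1 and Hspa13 as well. In limma, the protein-coding genes between those that rose in this stretch thus either did not pass or, for Robo2, fell. The whole of chromosome 16 had 4.15% of its 603 tested genes called higher.

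**Figure D3:**
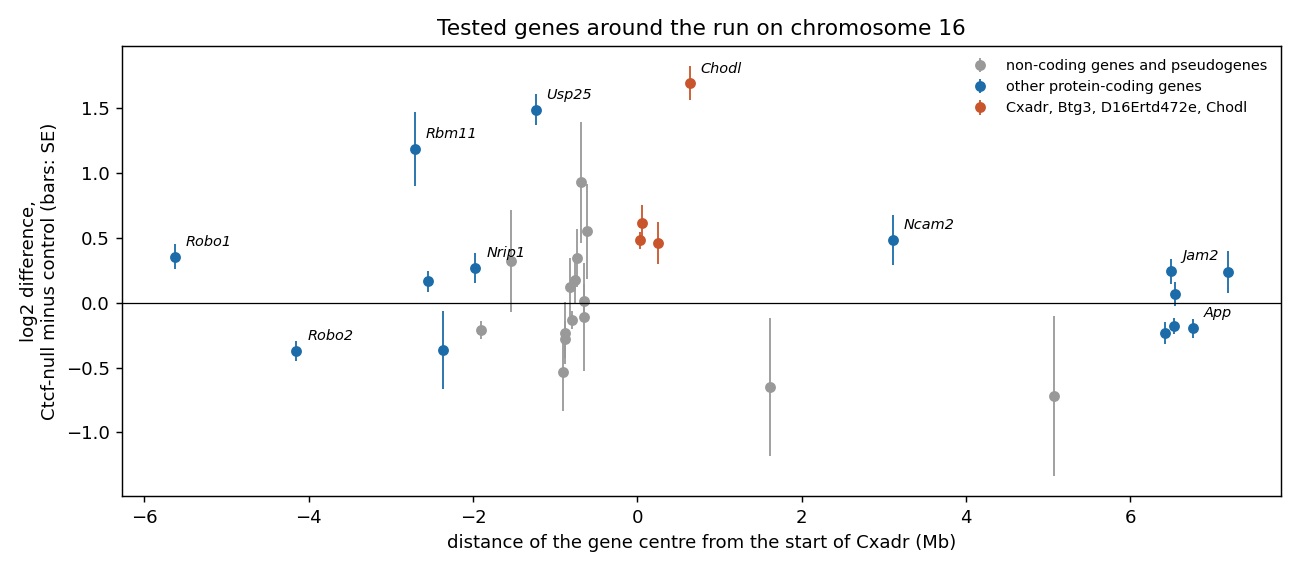
Fitted log2 difference (Ctcf-null minus control, y axis, bars are SE) of the tested genes near the run, by distance of the gene centre from the start of Cxadr in Mb (x axis). Chodl at 1.69 and Usp25 at 1.49 stand highest, and the non-coding genes between Usp25 and Cxadr range from -0.53 for Gm21816 to 0.93 for Gm37311.

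Among the relatives of Cxadr, 9 other genes of the CAR and junctional adhesion molecule list were tested. In limma 0 rose and 2 fell, against 3.67% and 10.1% of all tested genes. The median log2 difference of these 9 genes was -0.17 against -0.07 for all tested genes. One had an unadjusted p under 0.05 in the upward direction, namely Jam2, and DESeq2 called 0. With upper-quartile factors edgeR called Jam2 higher and 0 of these genes lower. Esam, an endothelial cell adhesion molecule gene, went from 705.33 and 1474.68 normalized counts to 530.33 and 1199.09 (-0.35, SE 0.09, limma adjusted p = 0.0096). Vsig10l went from 40.02 and 132.58 to 23.33 and 77.75 (-0.76, SE 0.23, limma adjusted p = 0.031). DESeq2 with the block called neither, with adjusted p of 0.23 and 0.45. Clmp, the gene of the CAR-like membrane protein, had -0.20, Jam3 -0.18, Igsf11 -0.17 and F11r -0.07, and none of these passed.

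Proteins that bind the tail of CAR or build the same junctions had 2 of 20 tested genes called higher, 2 lower and a median of 0.01. Over all tested genes 3.67% were called higher and 10.1% lower, so the share called lower is near the background. Pard3, a polarity scaffold gene, rose by 0.34 (SE 0.09, limma adjusted p = 0.018) and Mpdz, which encodes a multi-PDZ scaffold, by 0.30 (SE 0.10, limma adjusted p = 0.048). Inadl, the gene of the related scaffold PATJ, went from 506.98 and 315.20 to 275.77 and 229.61 (-0.67, SE 0.13, limma adjusted p = 0.0012), and Pard6a had -0.31 (SE 0.09, limma adjusted p = 0.032). The core junction genes Tjp1 and Ctnnb1 were at 0.11 and -0.01 and did not pass. DESeq2 with the block called 1 of these 20 genes, and it was lower. With TMM factors Pard6a did not pass (edgeR adjusted p = 0.082).

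While Btg3 was higher, 3 of the 5 other BTG and TOB genes fell and 0 rose in limma, with a median of -0.50. Of all tested genes, 10.1% were called lower and 3.67% higher in that fit. The same family counts were found in edgeR with TMM and with upper-quartile factors. Btg2, a gene of neurogenic progenitor divisions and a target of p53, went from 3979.36 to 2368.81 normalized counts in the first pair and from 3871.18 to 2503.88 in the second (-0.69, SE 0.07, limma adjusted p = 8.2e-07). Here the groups did not overlap, and both pairs had nearly the same ratio. Btg1 went from 1358.18 and 3874.93 to 1199.25 and 1862.42, with unequal pair differences of -0.18 and -1.06 (fitted -0.62, SE 0.12, limma adjusted p = 0.0021). Tob1 went from 253.49 and 497.81 to 219.20 and 285.50 (-0.50, SE 0.14, limma adjusted p = 0.018). DESeq2 with the block called neither Btg1 (adjusted p = 0.65) nor Tob1 (adjusted p = 0.29). Tob2 had -0.35 (limma adjusted p = 0.095), and Btg4, with 1.25 to 10.61 normalized counts, had 1.31 (SE 0.59, limma adjusted p = 0.16). The family as a whole was not tested against Btg3.

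BTG and TOB proteins recruit deadenylases. Of 17 tested genes of the CCR4-NOT and PAN complexes and their poly(A)-binding partners, 2 fell and 0 rose in limma, near the 10.1% of all tested genes called lower, with a median of -0.10. None had an unadjusted p under 0.05 in the upward direction (0 of 17), and DESeq2 called 1 lower and 0 higher. The members that fell were Pabpc4, a poly(A)-binding protein gene, from 152.09 and 564.10 to 66.47 and 296.43 (-1.05, SE 0.14, limma adjusted p = 2.6e-05), and Cnot10, at -0.33 (SE 0.09, limma adjusted p = 0.014). Cnot10 did not pass with upper-quartile factors (edgeR adjusted p = 0.13) or in DESeq2 (adjusted p = 0.30). Cnot7 and Cnot8, the catalytic subunits that BTG proteins bind, had -0.11 and -0.18 and did not pass.

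Among lectins related to chondrolectin, 1 of 5 other tested genes rose and 0 fell, against 3.67% and 10.1% of all tested genes. The median of these 5 was -0.16. The gene that rose was Layn, which encodes layilin, the hyaluronan receptor most similar to chondrolectin. It went from 21.35 and 51.28 to 38.89 and 108.12 normalized counts (0.95, SE 0.25, limma adjusted p = 0.014), higher in both pairs but with overlapping groups. DESeq2 with the block did not call it (adjusted p = 0.28). The endothelial members Cd93, Thbd and Clec14a were at -0.19, -0.16 and 0.05, and the pericyte gene Cd248 at -0.39, and none of these passed. In the downward direction 1 gene, Cd248, had an unadjusted p under 0.05.

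Chodl was higher while several genes of the interneuron class it marks were lower. Of 7 other tested genes of somatostatin interneurons with Chodl, 4 fell and 0 rose in limma (0 also in DESeq2, and 0 with an unadjusted p under 0.05 in the upward direction), with a median of -0.61. Sst, the somatostatin gene, went from 1491.59 to 146.37 normalized counts in the first pair and from 5444.67 to 679.12 in the second (-3.17, SE 0.09, limma adjusted p = 1.8e-14). Npy, which encodes neuropeptide Y, had -2.10 (SE 0.10) and the somatostatin receptor gene Sstr2 -1.57 (SE 0.08), with limma adjusted p of 2.1e-11 and 8.0e-11. Nos1, the neuronal nitric oxide synthase gene, went from 355.78 and 200.13 to 205.06 and 149.43 (-0.61, SE 0.14, limma adjusted p = 0.0060), and DESeq2 with the block did not call it (adjusted p = 0.17). The receptor gene Tacr1 was at -0.03, Crhbp at 0.79 and Adgrg6 at 0.73 (pair differences of 0.83 and 0.62), and none of these passed. For comparison, 3.67% of all tested genes were called higher and 10.1% lower in limma. The list was drawn up with earlier results of these libraries known, so it is no independent evidence of its direction. In bulk tissue, fewer cells of a type and less RNA per cell cannot be told apart.

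Markers of motor neurons, which also express Chodl, were low in the tissue. The defining genes Mnx1 and Lhx3 had 0 to 4 reads per library, Isl2 5 to 17 and Chat 4 to 20. Of 8 genes in that list 4 could be tested, of which 1 rose and 0 fell, against 3.67% and 10.1% of all tested genes. Prph, the gene of the neurofilament protein peripherin, went from 5.34 and 50.03 to 18.38 and 102.05 (1.31, SE 0.31, limma adjusted p = 0.0076), and DESeq2 with the block did not call it (adjusted p = 0.19). In the downward direction 2 genes had an unadjusted p under 0.05, namely Slc18a3 (-1.64, SE 0.57) and Slc5a7 (-1.13, SE 0.45). Neither passed (limma adjusted p = 0.062 and 0.10), and they had 0 to 25 and 4 to 20 reads. Chat was at 0.16, and the median of the 4 tested genes was -0.49.

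**Figure D4:**
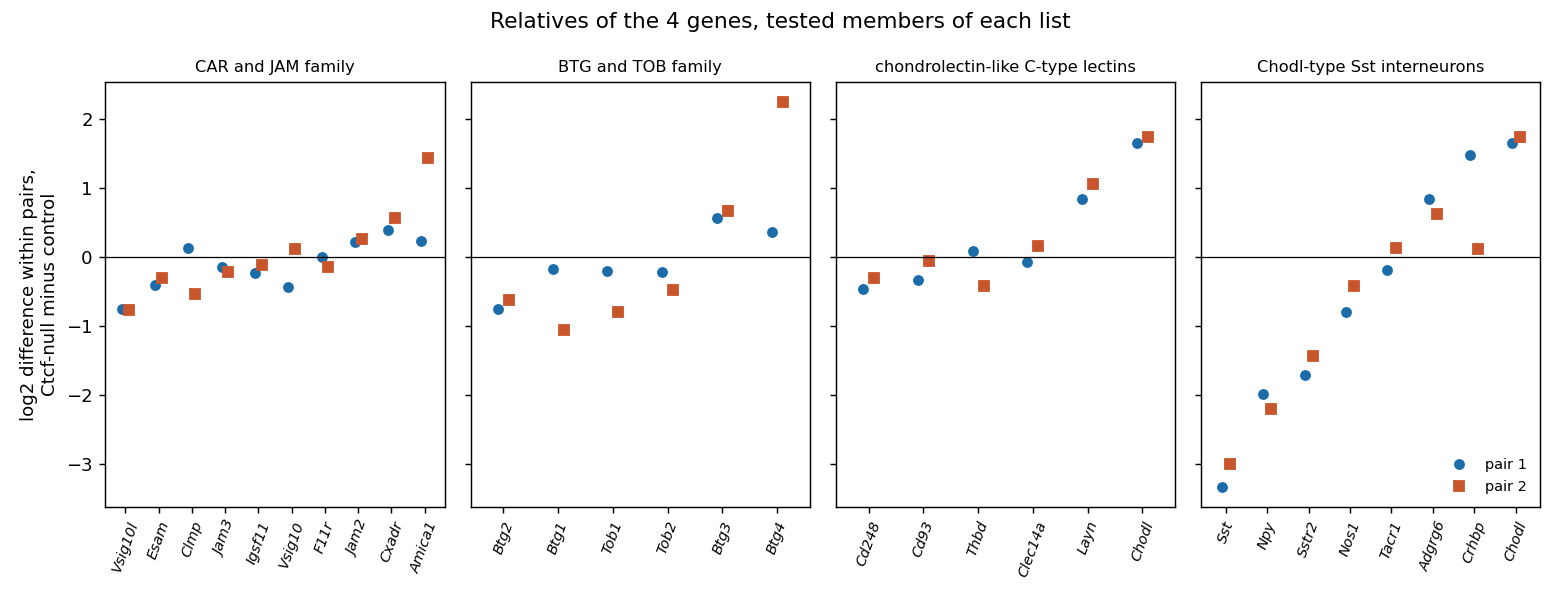
Log2 difference within pair 1 (circles) and pair 2 (squares), Ctcf-null minus control, for the tested genes of 4 lists of relatives, ordered by their fitted difference. Btg3 lies above 0 in both pairs while Btg1, Btg2, Tob1 and Tob2 lie below it, and Chodl and Layn lie above the other lectins; Chodl and Sst are at opposite ends of the last panel.

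Some markers of other cell types were higher too. Beside the counts that follow, 3.67% of all tested genes were called higher and 10.1% lower in limma. An unadjusted p under 0.05, in either direction, was found for 5998 of the 22158 tested genes. In the choroid plexus list 3 of 12 tested genes rose and 0 fell in limma (1 and 0 in DESeq2), with a median of 0.29. Its summed normalized counts, of which Ttr made up most, were 73901 and 96635 in the first pair and 25386 and 36851 in the second, control before Ctcf-null. Like Cxadr, this sum was higher in the first pair and higher in the Ctcf-null library of each pair. The genes that rose were Sostdc1, with pair differences of 0.15 and 0.94, Otx2, with 0.43 and 0.52, and Ttr, the transthyretin gene, with 0.39 and 0.54. Other markers of the list differed from the sum: Prlr had -0.27 and 0.10, Kl 0.30 and -0.17 and Clic6 0.30 and -0.07, and Aqp1 and Calml4 were lower in the first pair than in the second. None of these 5 passed. In the microglia list 1 of 12 rose and 0 fell (0 and 0 in DESeq2, and 3 higher at an unadjusted p under 0.05), with a median of 0.26 and sums going from 1839 to 2181 in the first pair and from 3907 to 4669 in the second. The 10 meningeal genes had a median of 0.01 and 0 calls in limma, with 1 higher at an unadjusted p under 0.05. Of 12 endothelial and pericyte genes 0 rose and 2 fell in limma, with 6 lower at an unadjusted p under 0.05, and edgeR called 1 lower with TMM and 0 with upper-quartile factors, and DESeq2 called 0. The erythroid genes summed to 1344560 and 925000 in the first pair and 576253 and 627021 in the second, control before Ctcf-null, and 0 of 10 passed in limma, with 4 lower at an unadjusted p under 0.05. No list had a marker at 0 in every library. The part of these cells in the differences of the 4 genes was not tested.

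Among the neural lists, of 7 intermediate progenitor genes 6 fell, Btg2 among them, with a median of -0.68. Of 13 genes of the ventral telencephalon and its interneurons 7 fell and 0 rose, with a median of -0.62 and pair medians of -0.27 and -0.93. Of 10 apical progenitor genes 3 fell and 0 rose, with a median of -0.15, and of 10 general neuronal genes 2 rose and 3 fell. Among neuronal genes edgeR with TMM factors called 3 higher and 3 lower and DESeq2 0 and 2, and among apical progenitor genes they called 1 and 3 and 0 and 3. DESeq2 called 3 of the 7 intermediate progenitor genes lower and 6 of the 13 ventral genes. For comparison, 3.67% of all tested genes were called higher and 10.1% lower in limma.

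Each of the 4 genes had close counterparts elsewhere in the genome when the pattern over the 4 libraries was compared. The measure was the Euclidean distance between log2(normalized count + 1) values centred on each gene's mean, where 0 means the same pattern. Closest to Cxadr were Bank1 (0.034), Aldoart1 (0.047) and Ccdc93 (0.050), of which Ccdc93 went from 603.93 to 758.73 normalized counts in the first pair and from 282.68 to 425.21 in the second. Closest to Btg3 were Hspb6 (0.055), 5730508B09Rik (0.060) and Stard5 (0.083), and closest to D16Ertd472e were Lrtm2 (0.033), Ccdc126 (0.045) and Gm17108 (0.049). Chodl had the most distant counterparts, Tmem159 (0.11), Ppp1r3d (0.21) and Rnf128 (0.26). Tmem159 went from 112.07 to 356.38 in the first pair and from 186.37 to 558.85 in the second. None of these 12 genes is on chromosome 16, and with 4 libraries such likeness is a description.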

How the data were processed

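RNA of embryonic day 14 telencephalon was sequenced in 4 libraries, 2 controls and 2 Ctcf-null. The labels' protocols name RNAlater for storage and a Clontech SMART kit for the cDNA. The submitters' processing notes list STAR 2.5.3, DESeq2 and mm10, and no source used here gives the gene counter. Per the file headers, the authors deposited normalized read counts, a signal not divided by gene length, and log2 fold changes per pair, which were recomputed within 0.008. Dividing by the value of 1 read gave whole reads, within 0.005, for 99.97% to 100% of values. In these reads the libraries held 41294659 (control 1), 27619441 (control 2), 43812558 (Ctcf-null 1) and 25519331 (Ctcf-null 2).

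The main fit was limma 3.58.1 (R 4.3.3) with a trended prior on log2(normalized count + 1) and the pair as a block, two-sided, after filterByExpr of edgeR 4.0.16. Fold changes on this scale are understated for genes with few reads. The block follows the submitters' design text, which speaks of 2 pairs. Across genes, libraries of the same number deviated together from their genotype's mean (r = 0.923); genes are not replicates. The fit leaves 1 residual degree of freedom and borrows 18.1 prior degrees of freedom from all genes. edgeR's quasi-likelihood test and DESeq2 1.42.0 were run on the recovered reads as alternatives. Limma with and without the block, edgeR with TMM factors and DESeq2 were also run on simulated data, and the other alternatives were not. Coordinates, exon lengths and gene types are from GENCODE M21, which matched 99.3% of the identifiers without their version. Promoter windows are from RefSeq (GRCm38.p6). The members and lists were chosen with earlier results of these data known. Named genes are the members, the rows and the 8 nearest tested genes beside them, the 3 nearest in pattern, the paralogs, and, of each list of related genes, up to 5 with the largest difference past the threshold. Other genes named, those of the marker lists and those that did not pass included, were chosen after their values were seen.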

Additional observations from a re-analysis of the deposited data

How the results depend on the processing

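The direction of Cxadr, Btg3, D16Ertd472e and Chodl was the same under each of the alternatives run, which were the fit without the replicate block, edgeR with 3 scalings, DESeq2, pseudocounts of 0.5 and 5, no filter, a stricter filter (50 normalized counts in 2 libraries) and each pair alone. Much of this was fixed in advance. The genes were chosen for being higher in both pairs, so each pair alone had to give that direction. Leaving out the block or changing the filter does not alter the fitted difference. The log2 difference of Chodl was 1.76 with TMM and 1.81 with upper-quartile factors, and that of Btg3 was 0.73 with upper-quartile factors. Leaving out a pair gave 0.40 to 0.57 for Cxadr, 0.57 to 0.67 for Btg3, 0.32 to 0.61 for D16Ertd472e and 1.65 to 1.73 for Chodl, with 1 library per genotype and no test. The fit with no replicate block kept these differences but had SE of 0.55, 0.50, 0.76 and 0.51, and it called 0 genes higher and 0 lower. Across all genes, upper-quartile factors gave 1358 higher and 1069 lower, and DESeq2 gave 289 and 543. The cause was not tested. Of 93 other genes, namely Ctcf and the neighbouring and related genes, 22 had a call in the main fit, and all 22 lost it without the block. In DESeq2, which gave a value for 82 of the 93, 14 of these 22 lost their call. A called direction was reversed in 0 genes under these alternatives. With 78 to 200 reads per library, D16Ertd472e had the least depth of the 4 genes.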
